A study of Monodelphis domestica with 5 samples.

Results

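The regions described here were peaks of H3K4me3 that carried none of the other marks profiled in the same cells. They were selected on measured values, as the rows of the H3K4me3 peak list on chromosomes 1 to 8 that were under 10000 bases wide and had no base in common with any listed peak of H3K9Ac, H3K9me3 or H3K27me3. The rule kept 28474 of the 74245 H3K4me3 peaks under that width on these 8 chromosomes (38.4%, exact 95% binomial interval 38.0% to 38.7%), of 79412 H3K4me3 peaks in the whole list. They covered 44.5 Mb, or 24.5% of the bases in those 74245 peaks, and are called unaccompanied H3K4me3 peaks below. "Unaccompanied" describes the lists: a mark that did not reach the threshold of its own list counted as missing.

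Trimethylation of histone H3 at lysine 4 is placed on nucleosomes around active and poised promoters, where CpG-rich sequence attracts the enzymes that write it. Acetylation of lysine 9 usually sits on the same nucleosomes and goes with active transcription, so both are marks of activation (MOAs). Trimethylation of lysine 9 and of lysine 27 are marks of repression (MORs); the former is typical of heterochromatin and repeats, and the latter is written by the Polycomb complex at silent genes. H3K4me3 together with H3K27me3 is known as a bivalent state, and lower levels of H3K4me3 are also known at some enhancers.

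The cells were primary fibroblasts grown from ear clips of 1 adult male gray short-tailed opossum (Monodelphis domestica, animal A0514), an F1 of an LL1 mother (A0359) and an LL2 father (A0342), at passages 4 to 6 by the labels. The paper's methods give an upper bound on passage that is lower than the 6 of the labels. Native ChIP, on chromatin digested with micrococcal nuclease and not cross-linked, was performed with 1 library for each of the 4 marks and 1 library of input. The labels describe pooling of chromatin for sisters only. Without replicates no difference was tested, and the 95% intervals for shares and medians cover counting error only and take each peak as independent, although neighboring peaks share a library and a locus.

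Scores in the lists are 10 times the negative log10 of the MACS p-value. A score of 50, the lowest in the H3K4me3 and H3K9Ac lists, stands for a p of 1e-05. The H3K9me3 and H3K27me3 lists reach down to 30, a p of 0.001. Scores pile up at a ceiling of 3100, and they depend on depth and width as well as on enrichment. The H3K9Ac list had 52511 peaks, the H3K9me3 list 159734 and the H3K27me3 list 16592.

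The main comparison set was the 41411 H3K4me3 peaks under the same limits that shared at least 1 base with H3K9Ac and none with either MOR (55.8% of the 74245), termed acetylated peaks. The other 4360 peaks (5.87%) overlapped a MOR, 1940 of them with H3K9Ac as well and 2420 without. Both classes were defined by overlap, so the lack of H3K9Ac is no finding, whereas the score was not used by the rule, and width and position entered it only through the limit of 10000 bases and the choice of chromosomes. A wide peak has more bases that can meet another list, and width is therefore not fully independent of the rule. Score was closely related to width, so the same holds for score.

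At the edge of the rule, 149 unaccompanied peaks (0.523%) had an H3K9Ac peak within 100 bases, at medians of 1334 bases in width and 102 in score. Just across it, 77 acetylated peaks shared at most 100 bases with H3K9Ac, at medians of 1326 bases in width and 95.04 in score. The peaks on either side of this edge thus had nearly the same width and score, although the classes as a whole did not. In all, 2107 unaccompanied peaks (7.40%) had H3K9Ac within 1000 bases. The width limit mattered little, since only 1 H3K4me3 peak on chromosomes 1 to 8 without another mark was 10000 bases or wider. It lay at chr8:156318515-156330663 of MonDom5, was 12149 bases wide with a score of 1498, and ended 619 bases from an acetylated H3K4me3 peak.

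Compared with acetylated peaks (quartiles at 1855 and 3747 bases), unaccompanied peaks were narrower and less spread in width. Their median was 1429 bases (95% interval 1424 to 1435), with quartiles at 1209 and 1775 and a range from 372 to 9902, against a median of 2538 bases (2522 to 2556) for acetylated peaks. Most of them, 75.8%, were between 1000 and 2000 bases wide, against 29.6% of acetylated peaks. At 3000 bases or wider there were 742 (2.61%), against 38.3% of acetylated peaks.

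They were also weak. The median score was 107 (106 to 109), against 465 (458 to 471) for acetylated peaks, and 9 in 10 scored at or below 308. Scores under 100 were found in 13027 (45.8%) and in 8.19% of acetylated peaks. At the strong end, 207 unaccompanied peaks (0.727%) scored 1000 or more, against 12145 acetylated peaks (29.3%). The ceiling was reached by 5 unaccompanied peaks and by 4797 acetylated peaks.

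**Figure D1:**
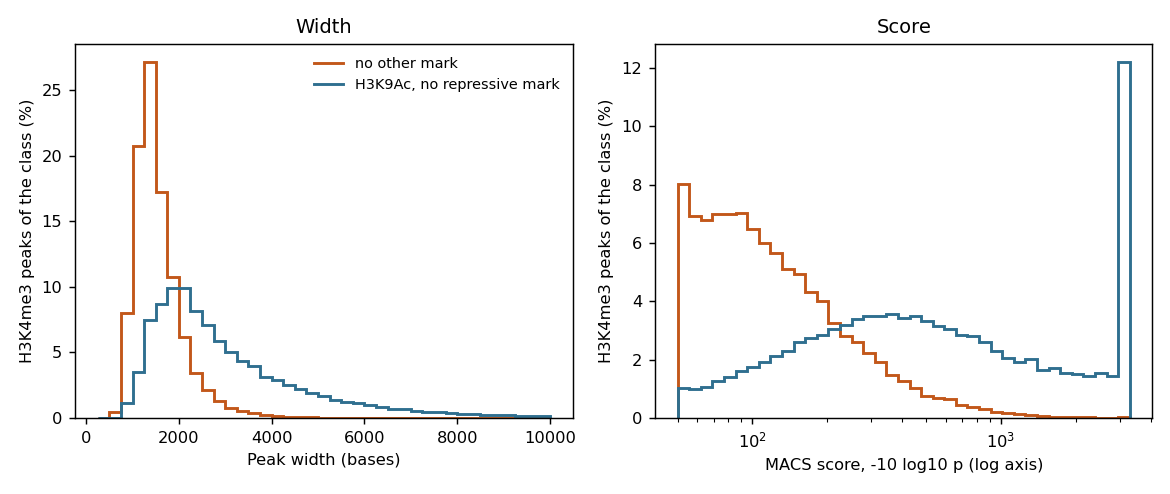
Share of peaks (%) by width in bases (left) and by MACS score on a log axis (right), for the 28474 unaccompanied H3K4me3 peaks (orange) and the 41411 acetylated ones (blue). The unaccompanied peaks form a narrow hump around 1429 bases and decline from the lowest scores upward, while the acetylated peaks spread to larger widths and pile up at the ceiling of 3100.

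The share of H3K4me3 peaks that were unaccompanied fell with score without a break. It was 78.7% between 50 and 60, 61.5% between 100 and 150, 34.9% between 200 and 300, 9.52% between 500 and 1000 and 0.0998% at or above 3100. By width it was 78.9% under 1000 bases, 48.5% between 1500 and 2000 and 0.641% from 6000 bases up. Compared with the 38.4% over all peaks, the unaccompanied state was thus the common one among the weakest and narrowest H3K4me3 peaks and rare among the strongest.

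Width and score were closely related in each class (Spearman's rho across peaks 0.825 for unaccompanied and 0.851 for acetylated peaks, a description, since peaks share 1 library), so each was examined with the other held in a class. Among peaks 1500 to 2000 bases wide, the unaccompanied share was 59.2% at scores of 100 to 150 and 40.5% at 200 to 300. Among peaks with scores of 200 to 300, it was 58.0% at 1000 to 1500 bases and 28.1% at 2000 to 3000 bases. The fall with width was not regular in every score class. At scores of 500 to 1000 the share was 15.0% (9.62% to 21.8%) at 1000 to 1500 bases and 21.2% (18.4% to 24.2%) at 1500 to 2000 bases, and at 150 to 200 it was 41.2% (38.9% to 43.6%) at 2000 to 3000 bases and 48.3% (29.4% to 67.5%) at 3000 to 4000 bases. At equal width unaccompanied peaks also scored lower: the medians were 80.7 and 93.9 at 1000 to 1500 bases, 258 and 394 at 2000 to 3000 bases, and 633 and 2105 at 4000 to 6000 bases, for unaccompanied and acetylated peaks respectively. The gap was smallest under 1000 bases, at 57.4 and 59.2.

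**Figure D2:**
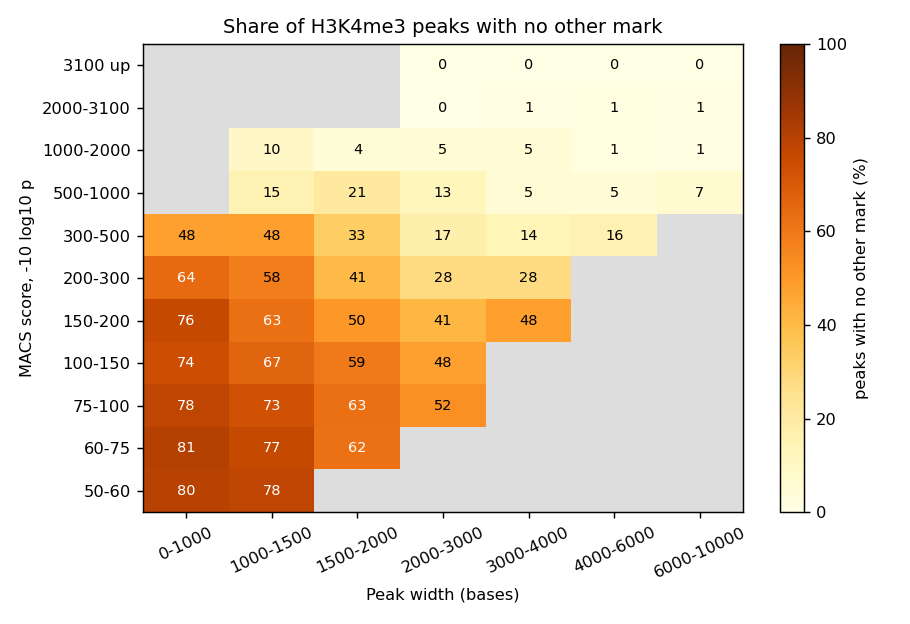
Share of H3K4me3 peaks that were unaccompanied (%, color and rounded number) by width in bases (horizontal) and MACS score (vertical), with classes of fewer than 20 peaks in gray. The share is 79.8% in the narrowest and weakest class and near 0 in the top row, and along width it is not regular in every row, as at scores of 500 to 1000.

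Unaccompanied peaks lay farther from acetylated H3K4me3 than acetylated peaks lay from each other. The distance to the nearest H3K4me3 peak of any width that overlapped H3K9Ac had a median of 13.0 kb (12.7 to 13.3), against 8.38 kb (8.21 to 8.54) from an acetylated peak to the next such peak. Under 1000 bases lay 2739 (9.62%, against 16.4% of acetylated peaks), and between 1000 and 5000 bases 5683 (19.96%, against 22.7%). Between 5000 and 10000 bases lay 4050 (14.2%, against 15.0%) and between 10 and 50 kb 10420 (36.6%, against 34.5%). A distance of 5000 bases or more was found for 70.4% of unaccompanied and 60.9% of acetylated peaks, so it was the more frequent case in both classes. Acetylated H3K4me3 was found within 5000 bases on both sides of 1200 unaccompanied peaks (4.21%) and on 1 side of 7222 (25.4%), and 20052 had none.

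At 100 kb or farther lay 2639 unaccompanied peaks (9.27%, 8.93% to 9.61%), against 4.25% of acetylated peaks. At 1 Mb or farther there were 50 (0.176%), against 30 acetylated peaks (0.0724%). These differences were not tested, and the counts are not independent, since the farthest peaks include a pair 291 bases apart.

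Width and score barely moved with this distance. Median widths lay between 1416 and 1452 bases and median scores between 105 and 116 in all 6 distance classes, and Spearman's rho with distance was 0.044 for score and -0.022 for width across the 28474 peaks. The exception was the strong tail. A score of 1000 or more was found in 0.246% of the unaccompanied peaks 1000 to 5000 bases from acetylated H3K4me3, in 0.681% at 10 to 50 kb and in 2.01% (53 peaks) at 100 kb or farther. Nearer than 1000 bases the share was 0.803% (22 peaks), so it did not rise steadily.

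**Figure D3:**
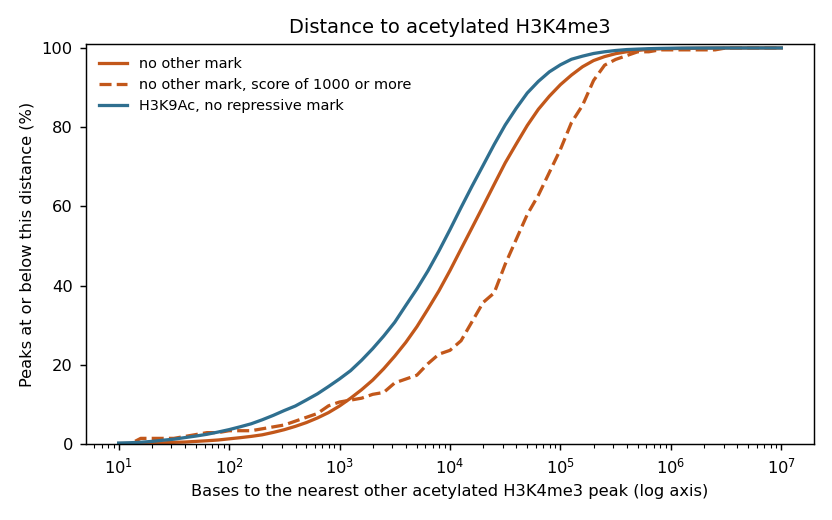
Cumulative share of peaks (%) against the distance in bases to the nearest other acetylated H3K4me3 peak (log axis), for unaccompanied peaks (orange, median 13.0 kb), those with a score of 1000 or more (dashed, median 36.9 kb) and acetylated peaks (blue, median 8.38 kb). The dashed curve lies to the right of the others over most of the range.

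The median distance from unaccompanied peaks to acetylated H3K4me3 was larger in the upper score classes. It was 12.5 kb (12.1 to 12.9) at scores of 50 to 100 and 11.9 kb at 100 to 200. From there it went to 15.5 kb at 200 to 500, 26.0 kb at 500 to 1000 and 36.9 kb (29.2 to 47.1) for the 207 strong peaks. Acetylated peaks with scores of 1000 or more had a median of 10.8 kb (10.4 to 11.3), against 7.07 to 7.62 kb in the lower score classes. The median width of the 207 strong unaccompanied peaks was 3255 bases, against 4404 bases for the equally strong acetylated peaks.

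These strong peaks were also closer to H3K27me3, the Polycomb mark. Although none overlapped it by rule, 66 of 207 (31.9%, 25.6% to 38.7%) had an H3K27me3 peak within 10 kb, against 10.5% (10.01% to 11.1%) of acetylated peaks with scores of 1000 or more, for which the same overlap was barred. From the lowest score class up, the share among unaccompanied peaks was 8.11%, 8.49%, 12.1%, 21.8% and 31.9%. Among acetylated peaks it was 4.13%, 4.64%, 5.27%, 6.81% and 10.5%. The share rose with score in both classes and was higher in the unaccompanied class at each step, a difference that was not tested.

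H3K9me3 did not follow this pattern. An H3K9me3 peak lay within 10 kb of 33.7% of unaccompanied peaks with scores of 50 to 100 and of 30.9% (24.7% to 37.7%) of those with 1000 or more, and the corresponding acetylated shares were 27.5% and 31.5%. When only MOR peaks with scores of at least 50 were used, a setting added after the data were seen, H3K27me3 lay within 10 kb of 18.4% (13.6% to 23.9%) of 234 strong unaccompanied peaks and of 4.59% (4.23% to 4.97%) of strong acetylated peaks. Both shares were lower, and their order was kept.

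**Figure D4:**
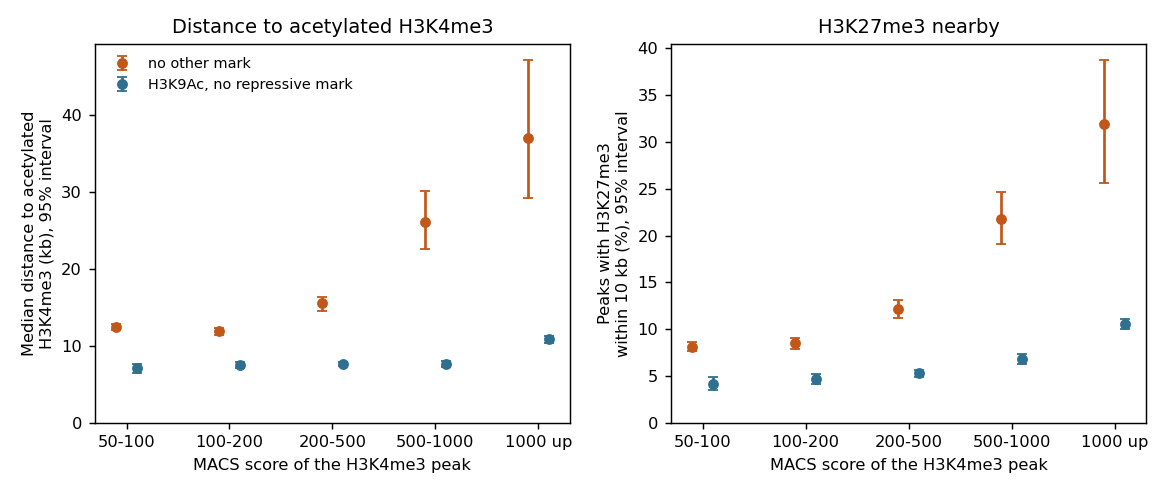
Median distance to acetylated H3K4me3 in kb (left) and share of peaks with H3K27me3 within 10 kb (%, right) by score class of the H3K4me3 peak, for unaccompanied (orange) and acetylated peaks (blue). Bars are exact 95% intervals for counting error. In the highest class the unaccompanied peaks reach 36.9 kb and 31.9%, against 10.8 kb and 10.5%.

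The 5 highest-scoring unaccompanied peaks illustrate these values. The largest listed score, 3188, belonged to a peak 4142 bases wide at chr4:133186517-133190658 of MonDom5. It lay 166 kb from acetylated H3K4me3 and 1.89 kb from H3K27me3. The peak at chr1:470292087-470296427 was 4341 bases wide with a score of 3110, 12.1 kb from acetylated H3K4me3 and 829 bases from H3K27me3. Both had another unaccompanied peak within 5000 bases, at 4444 and 3560 bases. The remaining peaks of this group sat at exactly 3100. They cannot be ranked by score among themselves or against the peaks listed at 3188 and 3110. The peak at chr2:494547313-494554844 was 7532 bases wide and had H3K27me3 at 897 and H3K9me3 at 1211 bases, with acetylated H3K4me3 29.1 kb away. The peak at chr1:251363196-251367162 was 3967 bases wide, with H3K27me3 at 192 bases and acetylated H3K4me3 at 37.9 kb. Only the peak at chr3:243364412-243369866, 5455 bases wide, was far from H3K27me3, at 268 kb, and its acetylated neighbor was 47.1 kb away. So 4 of these 5 peaks had H3K27me3 within 2 kb. Which genes lie at these positions was not analysed here.

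Of the 5 widest unaccompanied peaks, 4 lay within 2000 bases of an acetylated H3K4me3 peak. The widest, at chr5:91046121-91056022, measured 9902 bases with a score of 858 and was 1065 bases from one. On the same chromosome, chr5:91035828-91043436 measured 7609 bases with a score of 1706 and belonged to the same run of 3 unaccompanied peaks. The peak at chr2:516785431-516794262 measured 8832 bases with a score of 1137 and stopped 45 bases short of an acetylated peak. At chr2:290665657-290673400 a peak of 7744 bases with a score of 1269 stopped 628 bases short of one. The fifth was the peak on chromosome 2 at the ceiling described above. Only this last one had H3K27me3 within 10 kb.

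The farthest unaccompanied peaks were mostly weak. A pair on chromosome 5, chr5:163747098-163748310 and chr5:163748602-163751305, lay 291 bases apart and 4.72 and 4.71 Mb from acetylated H3K4me3, with scores of 50.7 and 630. On chromosome 7, chr7:114373912-114375297 scored 78.0 at 4.52 Mb and chr7:112060839-112061999 scored 58.9 at 3.59 Mb. These were each other's nearest H3K4me3 peak although they lay 2312 kb apart. The fifth, chr1:675139915-675140792, scored 65.1 at 3.06 Mb and lay 65 bases from an H3K9me3 peak. Apart from the second peak of the chromosome 5 pair, these scores were below the median of 107.

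Isolation was more frequent than among acetylated peaks. No other H3K4me3 peak of any kind lay within 10 kb of 10616 unaccompanied peaks (37.3%, 36.7% to 37.8%), against 31.5% (31.0% to 31.9%) of acetylated peaks and 33.9% of all 74245. At 5 kb the shares were 53.6% and 47.6%, at 50 kb 8.16% and 4.65%, and at 100 kb 3.02% and 1.31%. Isolated unaccompanied peaks resembled the other unaccompanied peaks in width and score, with medians of 1407 and 1443 bases and of 108 and 107. They were somewhat closer to H3K9me3, at a median of 15.8 kb (15.3 to 16.4) against 19.0 kb (18.5 to 19.5). Isolated acetylated peaks showed the same shift, at 16.3 against 20.9 kb.

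Counting all 4 lists, 5803 unaccompanied peaks (20.4%) had no other peak of any mark within 10 kb, 419 (1.47%) within 50 kb and 60 (0.211%) within 100 kb. The 60 most solitary peaks had medians of 1442.5 bases in width and 158 in score, the strongest of them at 1125. Peaks that stood alone were therefore not restricted to the lowest scores.

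The nearest H3K4me3 neighbor of an unaccompanied peak was itself unaccompanied in 43.2% of cases (42.6% to 43.8%) and acetylated in 50.2%. From acetylated peaks the neighbor was unaccompanied in 33.0% (32.6% to 33.5%) and acetylated in 61.3%. Over all H3K4me3 peaks on these chromosomes, 37.9% were unaccompanied and 55.1% acetylated, so each class was found next to its own kind more often than its share of the list. For the 207 strong unaccompanied peaks the neighbor was unaccompanied in 54.1% (47.1% to 61.03%) and overlapped a MOR in 10.1% (6.39% to 15.1%), against 33.9% and 4.62% for strong acetylated peaks.

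Whether most unaccompanied peaks stood alone or in clusters depended on the linking distance. Linking those within 10 kb of each other, with a run ended by any acetylated H3K4me3 peak between them, left 19572 alone (68.7%) and put 8902 (31.3%, 30.7% to 31.8%) into 3939 runs. Linking within 50 kb put 55.2% into runs, and linking within 5 kb put 21.8%. Of the runs at 10 kb, 3144 held 2 peaks, 627 held 3, 119 held 4, 39 held 5, 9 held 6 and 1 held 8. Peaks in runs were only slightly wider and stronger than those alone, with median widths of 1460 (1449 to 1473) and 1417 bases and median scores of 111 (109 to 113) and 106 (105 to 107). In runs of 3 or more the medians were 1479.5 bases and 113.

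The longest run lay at chr8:297327955-297374278, where 8 unaccompanied peaks spanned 46.3 kb and covered 33.1% of it. Their scores were 388, 321, 262, 70.1, 96.1, 209, 373 and 233 along the chromosome, and their widths ran from 1088 to 3056 bases. The median score of 247 in this run exceeded the 107 of the whole class. The nearest acetylated H3K4me3 peak was 40.4 kb away, the nearest H3K27me3 peak 890 bases and the nearest H3K9me3 peak 1.90 kb. In the 300 kb around the middle of the run there were 13 unaccompanied H3K4me3 peaks, 3 H3K4me3 peaks with a MOR and 1 with H3K9Ac. The same window held 2 H3K9Ac, 13 H3K9me3 and 12 H3K27me3 peaks.

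**Figure D5:**
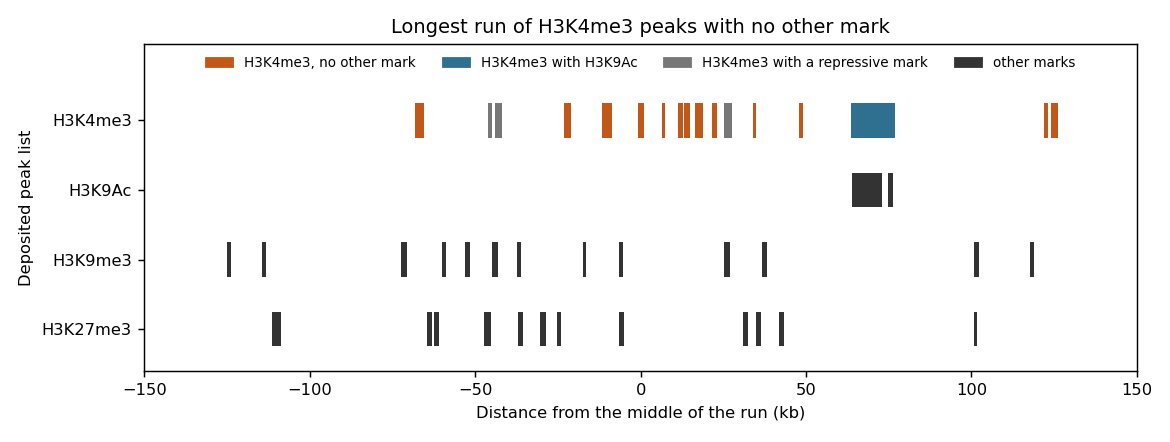
Peaks of the 4 lists against the distance in kb from the middle of the longest run, over 300 kb, drawn to scale. The 8 linked unaccompanied H3K4me3 peaks (orange) span 46.3 kb at the center, the only acetylated H3K4me3 peak (blue) lies 40.4 kb to the right of the run, and H3K9me3 and H3K27me3 peaks (black) fall between the orange bars and on both sides of them.

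Of the 9 runs of 6, the first in chromosome order were taken as examples. At chr1:192287409-192304877 the 6 peaks spanned 17.5 kb, covered 52.8% of it and scored 65.7 to 170, and the nearest H3K27me3 peak was 73.8 kb away. At chr1:746309278-746337378 the 6 peaks spanned 28.1 kb and scored 69.7 to 198, with acetylated H3K4me3 at 2.21 kb and H3K27me3 at 34.5 kb. Unlike the run of 8, these runs were made of peaks with scores near the class median, and H3K27me3 was not close.

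Across the chromosomes the unaccompanied share varied little, from 37.2% (36.5% to 37.9%) on chromosome 1 to 41.9% (40.4% to 43.3%) on chromosome 7, and density ran from 6.94 peaks per Mb on chromosome 5 to 8.91 on chromosomes 2 and 8. Median widths lay between 1419.5 and 1445 bases and median scores between 104 and 111 on all 8 chromosomes. The outermost 10 Mb at both ends of the chromosomes held 4.11% of unaccompanied and 3.91% of acetylated peaks, against 4.67% of the length. For these shares and the densities, the length of a chromosome was the largest peak end in any list, not its assembly length.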

How the data were processed

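Histone marks were profiled in 1 library each, and no library had a replicate. The submitters' processing notes list CASAVA 1.7, Bowtie 1.1.2 and MACS 1.0.1, and whether these are versions of the tools or of their Galaxy wrappers is not given in the sources used here. The authors mapped reads to MonDom5, keeping the best alignment, and listed peaks against the input. The deposited score of each peak is the negative log10 of its p-value multiplied by 10. The lists hold no read counts, so depth per peak is unknown here. For overlaps and widths, starts were read as counted from 0, and 2 H3K9me3 starts below 0 were set to 0. Printed coordinates count from 1. Overlaps, distances and intervals were computed in Python 3.11.15 (scipy 1.17.1, numpy 2.4.6). Peaks overlapped if they shared 1 base. In simulated lists 5000 of 5000 peaks were classified correctly, although the simulated H3K27me3 peaks only touched H3K4me3 peaks without sharing a base. For the real lists bedtools 2.31.1 gave the same total of 28474 peaks as the overlap code, and only totals were compared. Distances count the bases between peak edges. Intervals are exact 95% binomial (Clopper-Pearson) or order-statistic intervals.

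Members and rules were chosen with earlier results of these data known. Named peaks are the 5 highest-scoring, 5 farthest from acetylated H3K4me3, 5 widest, the longest runs and those nearest the width limit. Alternatives concerned score thresholds, merging, margins and linking distances. No gene annotation of MonDom5 was used here, so genes and sequences are not given.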

Additional observations from a re-analysis of the deposited data

Results flagged for a closer look

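Chromosome X and unplaced sequence were outside the rule and entered no comparison. On X, 381 of 756 H3K4me3 peaks under the width limit had no other mark (50.4%, 46.8% to 54.0%), at medians of 1412 bases in width, 121.5 in score and 32.3 kb in distance to acetylated H3K4me3. The share on chromosomes 1 to 8 ran from 37.2% to 41.9%. The paper points out that these male cells have a single X, and whether copy number affects the share on X was not tested. On unplaced sequence 538 of 3493 peaks had no other mark (15.4%, 14.2% to 16.6%), at medians of 1442 bases in width and 141 in score. These shares are given as values of 1 library.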

How the results depend on the processing

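Of 31 alternative values for 7 results, 14 stayed within the counting interval or, for the number of peaks, within 1.5 times, and 17 moved. None of these values carries a sign that could reverse, but the share in runs passed from a minority to a majority at a linking distance of 50000 bases, as the share isolated did at 5000 bases. Requiring an H3K4me3 score of at least 100 left 15447 unaccompanied peaks and gave a median width of 1727 bases, a median score of 171, a median distance to acetylated H3K4me3 of 14336 bases and 45.2% isolated, against 39.4% of acetylated peaks; fewer weak peaks remain by construction. Counting H3K9Ac closer than 1000 bases as present gave a distance of 15030 bases and 40.1% isolated, and merging H3K4me3 peaks within 1000 bases gave 1441 bases, a score of 109, 16153 bases and 44.5%. Isolation was 53.6% at 5000 bases and 8.16% at 50000, and the share in runs was 21.8% and 55.2% at these linking distances. H3K27me3 within 10 kb was found for 23.7% of unaccompanied peaks with scores of at least 500 (acetylated 9.11%) and for 18.4% of strong ones with MOR scores of at least 50; both settings were added after the data were seen. Dropping the width limit or weak MOR peaks from the rule moved none of the first 5 results. Alternatives with gene starts within 5000 bases and with base composition were not run, because no annotation or sequence of MonDom5 was used. No paired analysis was possible because each mark had a lone library. Depth of each library limits which marks reached its list, and the lists do not give it. The paper's supplement reports aligned reads per library, fewest for H3K9me3 and most for H3K27me3, with more for H3K9Ac than for H3K4me3. These numbers were not used here.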

Other observations

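Unaccompanied and acetylated peaks were dense in the same places. Over 3427 windows of 1 Mb on chromosomes 1 to 8 the numbers of both classes had a Spearman's rho of 0.801, a description across windows of 1 library. The median window held 7 unaccompanied peaks, 439 windows held none, and 154 windows with 256 unaccompanied peaks held no acetylated peak. The most in 1 window was 38, reached on chromosome 7 between 31000001 and 32000000, beside 17 acetylated peaks, and between 33000001 and 34000000, beside 28.

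Of 2345 windows with at least 10 peaks, 525 (22.4%) held more unaccompanied than acetylated peaks. The most one-sided, picked after their values were seen, were chr6:206000001-207000000 with 11 unaccompanied and 0 acetylated peaks, chr4:267000001-268000000 with 19 and 2, and chr1:205000001-206000000 and chr8:297000001-298000000 with 18 and 3 each. The last of these contains the longest run. No gene was assigned to these windows.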
